A study of Rattus norvegicus with 9 samples.

Results

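The endoplasmic reticulum (ER) translocon genes were followed in INS-1E cells, a rat insulinoma line used as a model of the insulin-secreting beta cell. The 9 genes were chosen by symbol, as components of the protein-conducting channel of the ER membrane and its closest partners, and all 9 were found among the 20645 genes of the expression table. They were Sec61a1, Sec61b and Sec61g, which encode the 3 subunits of the Sec61 channel, Sec62 and Sec63, and Ssr1, Ssr2, Ssr3 and Ssr4, which encode the subunits of the translocon-associated protein (TRAP) complex. RNA-seq had been run on 3 groups of cells with 3 libraries each. All groups were treated for 24 h: the BSA group received fatty acid-free bovine serum albumin, the PA group 0.5 mM palmitic acid, a saturated fatty acid, and the PA + C3G group a mixture of 0.5 mM PA and 50 µM cyanidin-3-O-glucoside (C3G), a plant anthocyanin. No group received C3G without PA, and all 9 libraries came from the same clonal tumour line.

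Proteins that are to be secreted or placed in a membrane enter the ER through the Sec61 channel. The signal recognition particle brings the ribosome to its receptor at the ER, the nascent chain is handed to the channel, and signal peptidase and oligosaccharyltransferase then cut off the signal peptide and attach sugars as the chain passes through. Sec62 and Sec63 help chains that are inserted after or without tight ribosome coupling, and Sec63 recruits the chaperone BiP on the lumenal side. TRAP sits beside the channel and assists substrates whose signal peptides open it weakly. Preproinsulin, the main secretory product of the beta cell, takes this route.

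Between 45559993 and 66730721 estimated counts were assigned to genes in a library. Pearson's r of log2 expression across genes was 0.963 to 0.972 within a group and 0.935 to 0.963 between groups. The lowest count of any member in any library was 3094. The beta cell identity of the line was checked against 11 markers, which all had a mean of at least 1 FPKM (fragments per kilobase of transcript, scaled to the depth of the library). Their summed level was 49849 to 50558 FPKM with BSA, 22838 to 23292 with PA and 47315 to 52849 with PA + C3G. Most of it was Ins1 (means of 26650, 13744 and 32002 FPKM) and Ins2 (13778, 1871 and 7008), so the sum says little about the other markers. Between PA + C3G and BSA, 4 of the 11 were lower (Ins2, Slc2a2, Pcsk1 and Slc30a8) and 3 higher (Ins1, Nkx6-1 and Chga). Of all genes tested, 17.9% were lower and 19% higher in this comparison. Of these 11 markers 10 were lower with PA than with BSA, and 10 were higher with PA + C3G than with PA, so with PA these markers moved opposite to most translocon genes. The part of this shift in the results below was not tested. The acinar and duct markers (4 of 6 with values) summed to 2.60 to 2.72 FPKM with BSA, 4.64 to 6.04 with PA and 3.05 to 3.99 with PA + C3G. Sox9, the only one of them tested, was higher with PA than with BSA (log2 fold change 0.94, SE 0.13, adjusted p = 0.000209) and lower with PA + C3G than with PA (−0.47, adjusted p = 0.0281), as were several translocon genes. The part of these markers in the results was not tested. Stromal, endothelial and immune markers (4 of 10 with values) summed to at most 0.730 FPKM in any library. Of the markers of other islet cells 3 of 5 had values, which summed to 9.55 to 31.9 FPKM with BSA, 2.87 to 7.01 with PA and 5.48 to 23.3 with PA + C3G. Gcg, the only one of these tested, was lower with PA than with BSA (−2.50, SE 0.71, adjusted p = 0.0149). It did not pass the test of PA + C3G against PA (1.93, adjusted p = 0.0814). In bulk RNA, fewer cells of a type and less RNA per cell cannot be told apart.

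In the coordinates of the table, whose genome build is not given in the sources used here, Sec61a1 (ENSRNOG00000013743) lies at chr4:120453581-120467932 on the minus strand. Sec61b (ENSRNOG00000006345) lies at chr5:63192298-63200508 on the plus strand and Sec61g (ENSRNOG00000005203) at chr14:99774589-99780964 on the minus strand. Sec62 (ENSRNOG00000009057) is at chr2:116189862-116219750 on the minus strand, and Sec63 (ENSRNOG00000000314) at chr20:47494270-47563222 on the plus strand. The TRAP genes are spread over 3 chromosomes. Ssr1 (ENSRNOG00000014165) is at chr17:27492220-27523912 on the plus strand, and Ssr4 (ENSRNOG00000053172) at chrX:156995779-156999650 on the minus strand. Ssr2 (ENSRNOG00000019940) at chr2:187951344-187960063 on the plus strand and Ssr3 (ENSRNOG00000011148) at chr2:156011002-156014527 on the minus strand share a chromosome with Sec62. No member's symbol was used by a second gene of the table.

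As a description with no test, the promoters of the members were searched for the elements through which the unfolded protein response is known to act. RefSeq windows of 300 bases (250 before the start of transcription and 50 after it, build GRCr8) were at hand for 8 of the 9 members, Sec61a1 being the exception. The ER stress response element (ERSE, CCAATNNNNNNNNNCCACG) was found in 0 of the 8 windows and in 22 of all 33469 windows (0.0657%). ERSE-II (ATTGGNCCACG) was found in 0 of the 8 and in 17 of all windows (0.0508%). With shares this low, a match in any of 8 windows was hardly to be expected, so 0 of 8 says little. The same search did find an ERSE in the window of Hspa5, which encodes BiP, from base −43 to base −25. The core CCACG, which is the end of both elements, was present on either strand in 3 of the 8 member windows (Sec63, Ssr1 and Ssr3) and in 31.6% of all windows. The core TGACGTG of the unfolded protein response element (UPRE) was present in 1 member window (Ssr4) and in 1.81% of all. The windows differed in base composition, from 40.0% G and C for Sec62 to 70.3% for Ssr1, against a median of 51.7% over all windows.

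The sequences that hold these matches are shown so that their spacing can be seen, with each match in capitals. A match on the opposite strand reads CGTGG for CCACG and CACGTCA for TGACGTG. Sec63 is shown from base −250 to base −1 (GRCr8 chr20:47827041-47827290, plus strand), with 3 of its 4 matches. Ssr1 is shown from base −250 to base −91 (GRCr8 chr17:27039043-27039202, plus strand), where the span of the gene begins. Ssr3 is shown from base −250 to base −1 (GRCr8 chr2:151935163-151935412, minus strand). Ssr4 is shown from base −2 to base 28 after the start (GRCr8 chrX:156675656-156675685, plus strand). The expression table instead places Ssr4 on the minus strand. Its span of Ssr3 (chr2:156011002-156014527) is also shorter than the RefSeq span (GRCr8 chr2:151915101-151935162). Whether the windows lie at the starts of the gene models that were counted was not checked.
Sec63: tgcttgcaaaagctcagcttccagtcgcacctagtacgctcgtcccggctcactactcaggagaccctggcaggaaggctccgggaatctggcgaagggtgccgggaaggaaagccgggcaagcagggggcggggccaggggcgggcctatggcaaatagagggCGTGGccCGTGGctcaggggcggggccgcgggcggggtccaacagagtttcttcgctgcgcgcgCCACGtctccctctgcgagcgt
Ssr1: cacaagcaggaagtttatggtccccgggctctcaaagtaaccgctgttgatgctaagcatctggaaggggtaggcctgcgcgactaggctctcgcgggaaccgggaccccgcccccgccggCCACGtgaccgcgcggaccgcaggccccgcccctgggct
Ssr3: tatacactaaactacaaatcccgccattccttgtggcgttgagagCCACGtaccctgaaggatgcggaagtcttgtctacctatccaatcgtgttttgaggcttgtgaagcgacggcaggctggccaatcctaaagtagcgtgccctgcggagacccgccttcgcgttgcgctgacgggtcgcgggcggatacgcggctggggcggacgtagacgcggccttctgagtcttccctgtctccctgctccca
Ssr4: agggaaacggaCACGTCAgtgccgccagcg
The fourth match of Sec63 lies at bases 32 to 36 after the start, and a second match of Ssr1 at bases −82 to −78. These are matches of letters in a window and no measurement of binding was made. Sec61b, Sec61g, Sec62 and Ssr2, some of them changed with PA and some not, hold none of the 4 motifs in these windows.

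To see what PA did to the translocon, the PA group was compared with the BSA group. With PA, 7 of the 9 members were higher at an adjusted p-value under 0.05 (edgeR's quasi-likelihood test, Benjamini-Hochberg adjustment over 12958 genes). They were 2 of the 3 channel subunits, Sec63 and all 4 TRAP subunits, while Sec61g and Sec62 did not pass the test. Of all genes tested, 25.8% were called higher. The median log2 fold change of the 9 members was 0.71, against 0.00 over all genes tested. The summed level of the 9 members was 867 ± 29.3 FPKM (SD, n = 3) with BSA and 1329 ± 15.4 (n = 3) with PA, which is 1.53-fold. With the replicates of each group set side by side, 7 members had no overlap in FPKM between the PA and BSA libraries, with every PA library above, as had 28% of all genes. A fold change above 2 with an unadjusted p-value under 0.05 in edgeR was met by 1 member, Sec61a1, and by 3.3% of all genes in the same direction. The study's own rule for a differentially expressed gene has these thresholds but does not say whether p was adjusted.

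**Figure D1:**
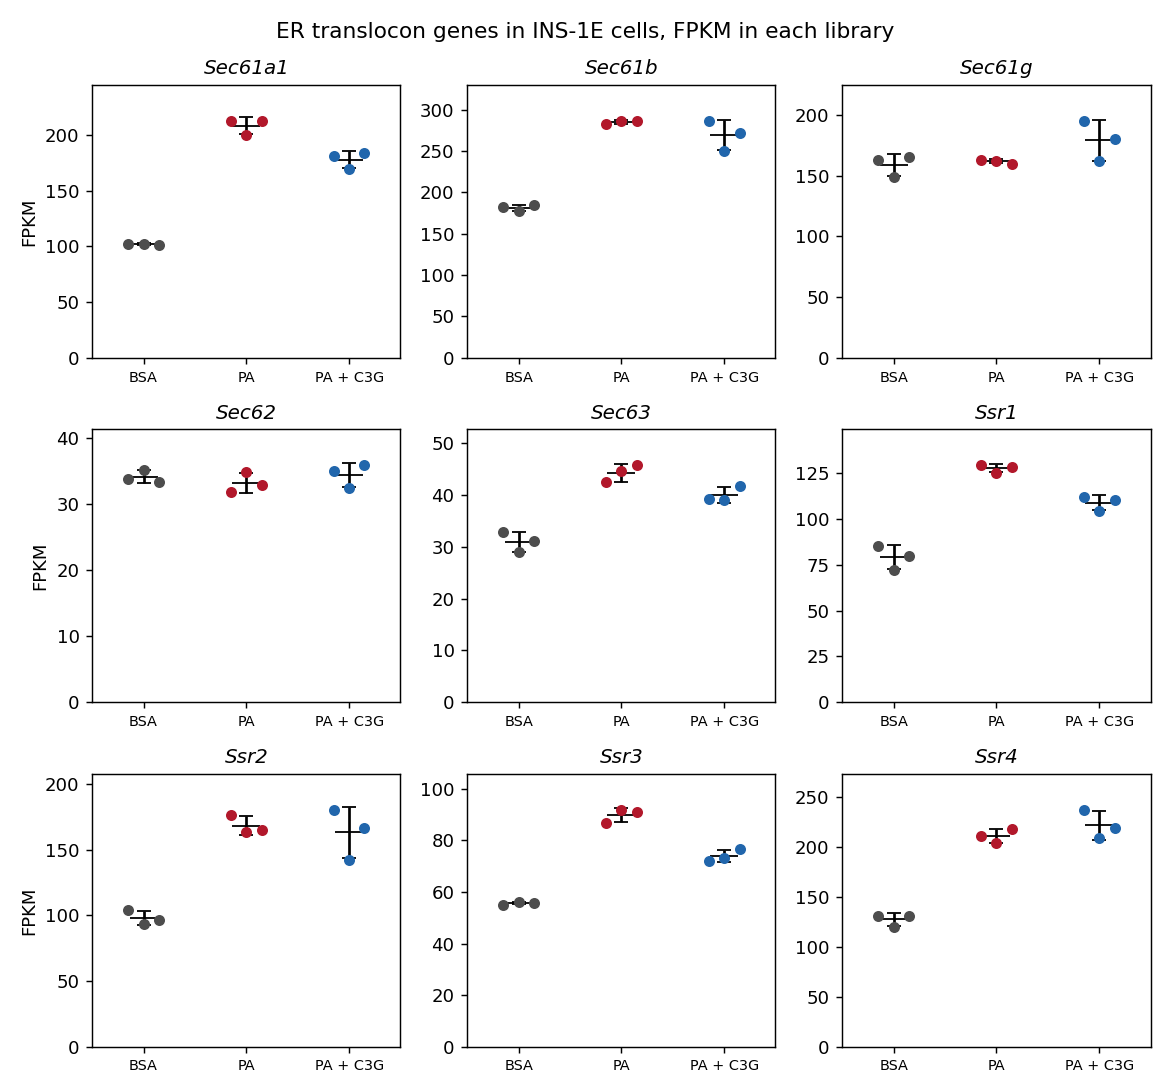
Level of the 9 translocon genes in FPKM (vertical axes, starting at 0) in each library of the BSA, PA and PA + C3G groups. Points are libraries in the order of their replicate numbers, and bars are the mean ± SD (n = 3). Sec61a1 stood at 102 with BSA and 208 with PA, whereas the points of Sec61g and Sec62 overlap between these groups.

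Sec61a1 encodes the alpha subunit, the membrane-spanning pore of the channel. Its level in BSA replicates 1, 2 and 3 was 103, 102 and 101 FPKM. In the PA libraries it was 213, 199.7 and 213 FPKM. In the PA + C3G libraries it was 181, 169 and 183 FPKM. The 3 groups did not overlap, with BSA lowest and PA highest. The log2 fold change of PA over BSA was 1.05 (SE 0.04, adjusted p = 6.14e-08), the largest among the members. By p-value Sec61a1 ranked 74 of all genes tested in this comparison.

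Sec61b encodes the beta subunit, a small tail-anchored protein beside the pore. The BSA libraries had 183, 177 and 184 FPKM and the PA libraries 282, 287 and 287. The PA + C3G libraries had 286, 249.7 and 272 FPKM. All 6 treated libraries were above the 3 BSA libraries, and the PA and PA + C3G libraries overlapped. PA over BSA gave a log2 fold change of 0.68 (SE 0.05, adjusted p = 3.01e-06).

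Sec61g encodes the gamma subunit, which clamps the pore from the outside. It was at 162, 148 and 165 FPKM in the BSA libraries and at 163, 162 and 159.9 FPKM in the PA libraries. In the PA + C3G libraries it was at 195, 162 and 180.1 FPKM. In FPKM, the PA libraries lay within the range of the BSA libraries. Between PA and BSA the log2 fold change was 0.05 (95% confidence interval −0.10 to 0.20, adjusted p = 0.564). A rise of the size of that of Sec61b therefore lay outside the interval, while a small change in either direction lay within it.

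Sec62 and Sec63, which work together beside the channel, differed from each other. Sec62 had 33.8, 35.2 and 33.4 FPKM in the BSA libraries, 31.9, 34.9 and 32.8 with PA and 35.0, 32.4 and 35.9 with PA + C3G. The 3 groups overlapped. Its log2 fold change of PA over BSA was −0.02 (95% confidence interval −0.14 to 0.10, adjusted p = 0.835). Sec63, the J-domain protein of the pair, had 32.8, 28.9 and 31.0 FPKM in the BSA libraries. It had 42.4, 44.5 and 45.7 FPKM with PA and 39.1, 39.1 and 41.7 with PA + C3G. No library of one group fell within the range of another group. The log2 fold change of Sec63 in PA over BSA was 0.54 (SE 0.05, adjusted p = 1.79e-05).

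The 4 TRAP genes all rose with PA. Ssr1, which encodes the alpha subunit, had 85.3, 72.3 and 79.7 FPKM in the BSA libraries, 129, 125 and 128 with PA and 112, 104 and 110.4 with PA + C3G. Ssr2, for the beta subunit, had 104, 93.4 and 96.3 FPKM with BSA, 176, 163 and 165 with PA and 180.4, 142 and 167 with PA + C3G. In both genes every PA library was above every BSA library, but Ssr2 varied more between the PA + C3G libraries than the other TRAP genes did (SD 19.6 FPKM on a mean of 163). Ssr3, for the gamma subunit, had 55.1, 56.1 and 55.9 FPKM with BSA, 86.8, 91.9 and 90.8 with PA and 72.1, 73.0 and 76.6 with PA + C3G. Ssr4, for the delta subunit, had 131, 120.2 and 131 FPKM with BSA, 211, 203 and 218 with PA and 237, 209 and 219 with PA + C3G. Ssr1 and Ssr3 stood in 3 separate ranges with PA highest, whereas the PA and PA + C3G libraries of Ssr2 and Ssr4 overlapped. With PA over BSA the log2 fold change was 0.72 for Ssr1 (SE 0.06, adjusted p = 5.20e-06), 0.81 for Ssr2 (SE 0.08, adjusted p = 2.64e-05), 0.71 for Ssr3 (SE 0.04, adjusted p = 3.66e-07) and 0.75 for Ssr4 (SE 0.06, adjusted p = 3.66e-06).

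FPKM is a level per length of transcript, so the members can also be ranked. A rank depends on the length assigned to each gene, which was not checked. In BSA replicate 1, for example, Sec61a1 had 21320 counts at 103 FPKM and Sec61g 4935 counts at 162 FPKM. With BSA the order from the highest mean was Sec61b (181 FPKM), Sec61g (159), Ssr4 (128), Sec61a1 (102), Ssr2 (97.8), Ssr1 (79.1), Ssr3 (55.7), Sec62 (34.1) and Sec63 (30.9), and the libraries of each gene were above those of the next one except for Sec61a1 and Ssr2, which overlapped. With PA the order was Sec61b (285), Ssr4 (211), Sec61a1 (208), Ssr2 (168), Sec61g (162), Ssr1 (128), Ssr3 (89.8), Sec63 (44.2) and Sec62 (33.2), with an overlap between Ssr4 and Sec61a1. Thus Sec61a1 stood below Sec61g with BSA and above it with PA, and Sec63 passed Sec62. With PA + C3G the order was Sec61b (269), Ssr4 (222), Sec61g (179), Sec61a1 (178), Ssr2 (163), Ssr1 (109), Ssr3 (73.9), Sec63 (40.0) and Sec62 (34.4). Here Sec61g overlapped with Sec61a1, and Sec61a1 with Ssr2.

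To learn how C3G altered these genes when given with PA, the PA + C3G group was compared with the PA group. Sec61a1, Ssr1 and Ssr3 were lower with C3G, so 3 of the 9 members were called lower, against 10.2% of all genes. This share of all genes was 19.5% when libraries were scaled to equal sums of FPKM and 6.15% without PA replicate 3. With edgeR, DESeq2 and limma 0 members were called higher, and 1 (Sec61g) was higher at an unadjusted p-value under 0.05. The log2 fold change of PA + C3G over PA was −0.19 for Sec61a1 (SE 0.04, adjusted p = 0.00929), −0.19 for Ssr1 (SE 0.06, adjusted p = 0.0364) and −0.24 for Ssr3 (SE 0.04, adjusted p = 0.00212). In fold terms Ssr3, the member with the largest decrease, was at 0.844 of its PA level. The median over the 9 members was −0.05, against −0.00 over all genes tested. No member met the study's fold change of 2 in this comparison. In 4 members (Sec61a1, Sec63, Ssr1 and Ssr3) the PA + C3G and PA libraries did not overlap in FPKM. Such a lack of overlap, in either direction, was seen in 39.5% of all genes tested.

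The other 6 members did not pass the test of PA + C3G against PA. The log2 fold change was −0.11 for Sec63 (95% confidence interval −0.22 to 0.01, adjusted p = 0.168). In FPKM its PA + C3G libraries were all below its PA libraries. In log2 counts scaled to the depth of the library these groups overlapped, with 8.045 in PA + C3G replicate 3 and 8.037 in PA replicate 1. The log2 fold change was −0.05 for Sec61b (interval −0.16 to 0.06, adjusted p = 0.551) and −0.01 for Ssr2 (interval −0.19 to 0.17, adjusted p = 0.955). The remaining values were above 0. They were 0.09 for Sec62 (interval −0.03 to 0.21, adjusted p = 0.275), 0.11 for Ssr4 (interval −0.02 to 0.23, adjusted p = 0.202) and 0.18 for Sec61g (interval 0.03 to 0.34, adjusted p = 0.0863). PA + C3G replicate 2 was the lowest of its group for 8 of the 9 members. Without that library, Sec61g was called higher with C3G than with PA (log2 fold change 0.25, adjusted p = 0.0199). The call of Ssr1 was lost when any of 7 libraries was left out, namely BSA replicate 3, each of the PA libraries or each of the PA + C3G libraries (log2 fold change −0.22 to −0.17, adjusted p from 0.0552 to 0.104). When libraries were scaled to equal sums of FPKM, Sec63 was also called lower (−0.20, adjusted p = 0.0308), and the median of all genes was −0.09.

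**Figure D2:**
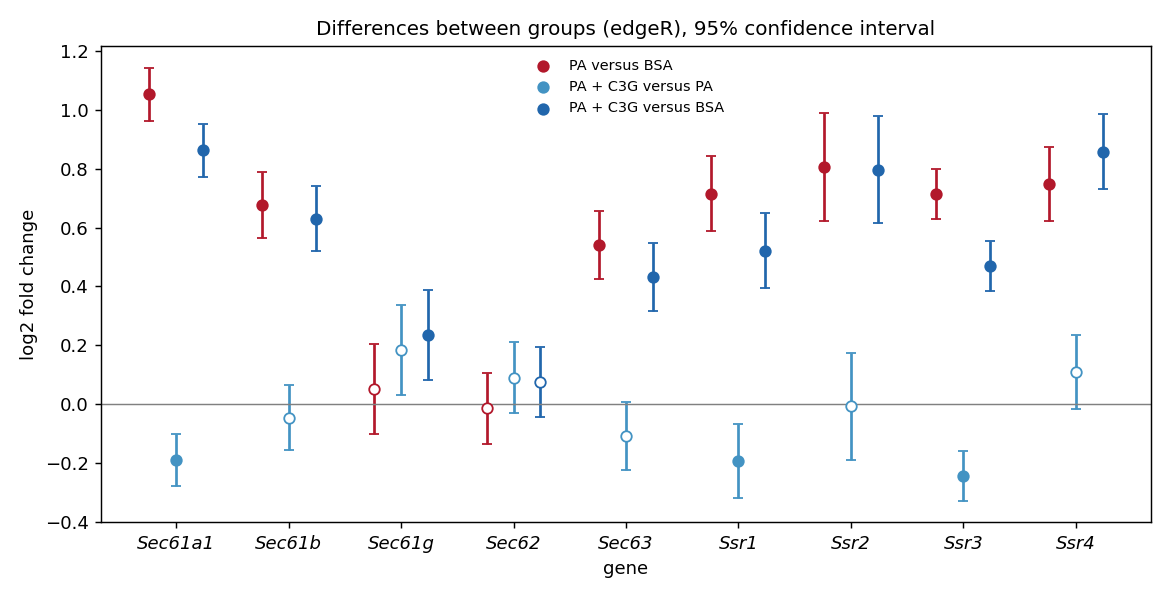
Log2 fold change (vertical axis) of the 9 members (horizontal axis) in PA versus BSA, PA + C3G versus PA and PA + C3G versus BSA, from edgeR, with 95% confidence intervals. Filled points passed an adjusted p-value of 0.05 and open points did not. In PA versus BSA the values run from −0.02 for Sec62 to 1.05 for Sec61a1, and in PA + C3G versus PA from −0.24 for Ssr3 to 0.18 for Sec61g.

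Compared with BSA, the PA + C3G group had 8 of the 9 members at a higher level, against 19% of all genes called higher. This comparison shares the BSA libraries with the first one and the PA + C3G libraries with the second. The PA + C3G and BSA libraries did not overlap in FPKM for 7 members, and, in either direction, for 50.3% of all genes tested. Over BSA, the log2 fold change was 0.86 for Sec61a1 (SE 0.04, adjusted p = 4.27e-07), 0.63 for Sec61b (SE 0.05) and 0.43 for Sec63 (SE 0.05). For the TRAP genes it was 0.52 for Ssr1, 0.80 for Ssr2, 0.47 for Ssr3 and 0.86 for Ssr4, with adjusted p-values from 3.12e-06 for Ssr4 to 7.50e-05 for Ssr1. The median over the members was 0.52, against 0.01 over all genes tested, and the summed level was 1268 ± 80.6 FPKM (SD, n = 3), which is 1.46-fold over BSA. Sec62 did not pass the test (0.07, adjusted p = 0.314). Sec61g passed it with a log2 fold change of 0.24 (SE 0.07, adjusted p = 0.0222), but its libraries overlapped between the groups. The call of Sec61g was lost without BSA replicate 2 (0.18, adjusted p = 0.0877), without PA + C3G replicate 1 (0.16, adjusted p = 0.0838) and without PA + C3G replicate 3 (0.23, adjusted p = 0.0643). It was also lost with scaling to equal sums of FPKM (0.18, adjusted p = 0.0670) and with limma on log2(FPKM + 1) (0.17, adjusted p = 0.0723).

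The subunits of one complex were then set against each other within each library, since such a ratio does not depend on the scaling between libraries. In all, 10 ratios were formed, and each was tested in PA against BSA and in PA + C3G against PA with a two-sided exact permutation test. With 3 libraries against 3 this test cannot give a p-value below 0.1, so no ratio could pass 0.05, and over the 20 tests an exact p of 0.1 became an adjusted p of 0.143. The FPKM ratio of Sec61g to Sec61a1 was 1.58, 1.45 and 1.63 in the BSA libraries, 0.765, 0.812 and 0.752 in the PA libraries and 1.08, 0.957 and 0.982 in the PA + C3G libraries. By FPKM, the pore subunit thus went from the lower to the higher level of the pair with PA, and the 3 groups did not overlap. The difference in the log2 ratio was −1.0 in PA against BSA and 0.37 in PA + C3G against PA (exact p = 0.1 for each). The ratio of Sec61b to Sec61a1 was 1.78 ± 0.0414 (SD, n = 3) with BSA, 1.37 ± 0.0585 with PA and 1.51 ± 0.0565 with PA + C3G, also without overlap. Its log2 differences were −0.38 and 0.14 (exact p = 0.1 for each).

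Sec62 to Sec63 behaved likewise. The ratio was 1.03, 1.22 and 1.08 in the BSA libraries, 0.752, 0.784 and 0.718 with PA and 0.895, 0.829 and 0.861 with PA + C3G. The groups did not overlap, and the log2 ratio differed by −0.56 between PA and BSA and by 0.20 between PA + C3G and PA (exact p = 0.1 for each). Each TRAP subunit stood lower relative to Sec61a1 with PA than with BSA, with differences of the log2 ratio from −0.34 for Ssr3 and Ssr1 to −0.25 for Ssr2 (exact p = 0.1 for each of the 4, with no overlap). Sec61a1 had the largest log2 fold change among the members (1.05). Lower ratios to it with PA, those of Sec61b and Sec61g included, therefore follow from the single-gene values and are no separate evidence. Between PA + C3G and PA, the ratio to Sec61a1 was higher by 0.30 for Ssr4 and by 0.18 for Ssr2 (exact p = 0.1 for each), whereas the libraries overlapped for Ssr1 (difference −0.00, exact p = 0.9) and Ssr3 (−0.05, exact p = 0.5).

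Within TRAP the ratios to Ssr4 overlapped between the BSA and PA libraries. Ssr3 to Ssr4 was 0.420, 0.467 and 0.426 with BSA and 0.412, 0.452 and 0.416 with PA, which overlapped (log2 difference −0.04, exact p = 0.5). With PA + C3G it was 0.304, 0.349 and 0.351, below all libraries of the other groups (−0.35 against PA, exact p = 0.1). Ssr1 to Ssr4 was 0.619 ± 0.0266 (SD, n = 3) with BSA, 0.606 ± 0.0145 with PA and 0.491 ± 0.0187 with PA + C3G. Its log2 ratio differed by −0.03 between PA and BSA (exact p = 0.6) and by −0.30 between PA + C3G and PA (exact p = 0.1). Ssr2 to Ssr4 overlapped in both comparisons (0.06, exact p = 0.4, and −0.12, exact p = 0.3). The ratios to Ssr4 that did not overlap between PA + C3G and PA were those of Ssr1 and Ssr3, the TRAP genes called lower with C3G. The ratios come from the same libraries as the calls, so this is no separate evidence.

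**Figure D3:**
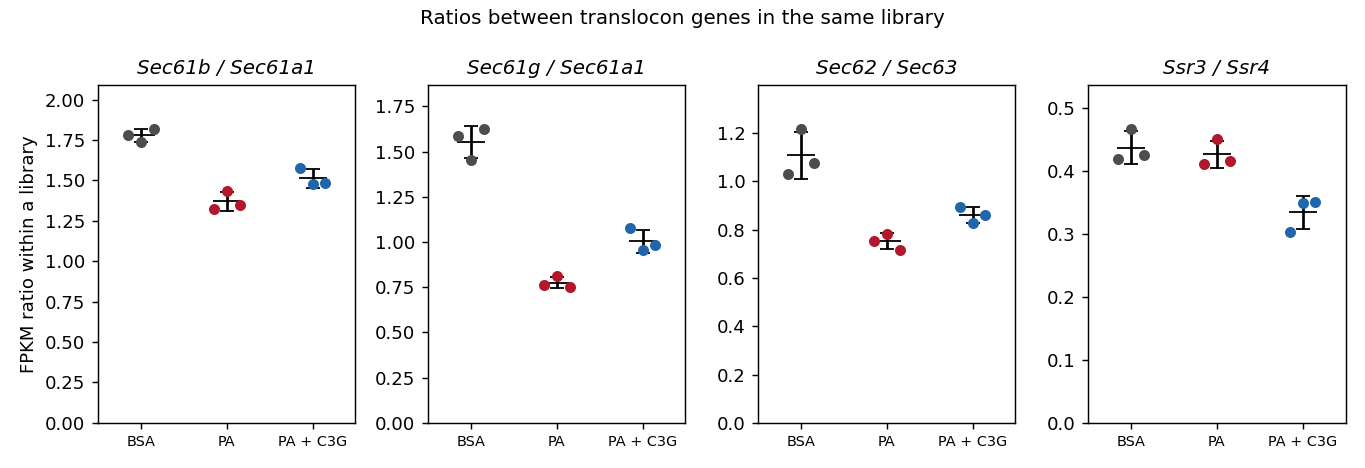
FPKM ratio of Sec61b to Sec61a1, Sec61g to Sec61a1, Sec62 to Sec63 and Ssr3 to Ssr4 (vertical axes, starting at 0) in each library of the 3 groups. Points are libraries and bars the mean ± SD (n = 3). The first 3 ratios are lowest with PA, and Ssr3 to Ssr4 is lowest with PA + C3G (0.335 ± 0.0267, against 0.427 ± 0.0218 with PA).

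The genes that act just before and after the channel were described with lists chosen by function, by their counts and medians. Over all genes tested, 25.8% were higher and 25.2% lower with PA than with BSA (median log2 fold change 0.00), and 11.1% were higher and 10.2% lower with C3G than with PA (median −0.00). In the targeting step, 3 of 6 tested genes of the signal recognition particle and its receptor were higher with PA than with BSA (median log2 fold change 0.36). They were Srpra, the receptor's alpha subunit, at 0.86 (SE 0.05, adjusted p = 6.50e-07), Srp68 at 0.67 (SE 0.05) and Srp54a at 0.41 (SE 0.05), and the same 3 were lower with C3G than with PA. The C3G call of Srp68 was lost when PA replicate 2, PA replicate 3 or a single PA + C3G library, whichever it was, was left out (adjusted p from 0.0547 to 0.117). Srp19 was at 0.30 (SE 0.12, adjusted p = 0.0738), but was called higher by DESeq2 (adjusted p = 0.0296) and without PA replicate 2 (adjusted p = 0.0468). Of the signal peptidase complex, 4 of 5 genes were higher with PA and 1 lower (median 0.68). Sec11c, a catalytic subunit, was at 1.297 (SE 0.08), the other catalytic subunit Sec11a at 0.57 (SE 0.06), Spcs3 at 0.91 (SE 0.04) and Spcs2 at 0.68 (SE 0.04). The lower one was Spcs1 (−0.15, SE 0.05, adjusted p = 0.0177), which was named after its value was seen. This call was lost without PA replicate 1 (−0.14, adjusted p = 0.0549) or PA replicate 2 (−0.14, adjusted p = 0.0604). With C3G, Spcs3 was lower (−0.25, adjusted p = 0.00372) and Spcs1 higher (0.19, adjusted p = 0.0178) than with PA. The higher call of Spcs1 was lost without PA replicate 1, PA replicate 2 or PA + C3G replicate 1 (adjusted p from 0.0602 to 0.0644) and with scaling to equal sums of FPKM (0.10, adjusted p = 0.147). With that scaling 3 of the 5 genes were lower with C3G, as with limma.

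Of the oligosaccharyltransferase, which N-glycosylates the entering chain, 10 of 11 tested genes were higher with PA and 1 lower (median 0.62). Ostc was at 1.26 (SE 0.05), Magt1 at 1.17 (SE 0.05), Rpn2 at 1.12 (SE 0.06) and Ddost at 1.05 (SE 0.05). The lower one was Tusc3 (−0.23, SE 0.04, adjusted p = 0.00124), an alternative to Magt1 in the same position of the enzyme, and it too was named after its value was seen. With C3G, 2 of the 11 were lower and 1 higher than with PA. Magt1 was among the lower ones (−0.26, adjusted p = 0.00850) and Tusc3 was the higher one (0.20, adjusted p = 0.00912). The other lower one, Stt3b, named after its value was seen, lost its call when a single PA library, whichever it was, or PA + C3G replicate 2 or 3 was left out (adjusted p from 0.0550 to 0.0873). With scaling to equal sums of FPKM, 5 were lower and Tusc3 was no longer called (0.11, adjusted p = 0.0521).

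Of 12 other factors listed with the channel, 8 were higher with PA (median 0.57). Among the 8, Dnajc1, named after its value was seen, lost its call without BSA replicate 1, BSA replicate 3 or PA replicate 2 (adjusted p from 0.0551 to 0.0615). Hspa5 and Hyou1 also count among the ER chaperones below. Hspa5, whose product BiP seals the channel and pulls chains inwards, was at 1.73 (SE 0.06), and its exchange factor Hyou1 at 1.47 (SE 0.08). Serp1, which encodes the translocon-associated RAMP4, was at 1.35 (SE 0.04) and Tram1 at 0.85 (SE 0.04). With C3G, 5 of the 12 were lower than with PA, among them Hspa5 (−0.47, adjusted p = 0.000555), Hyou1 (−0.47, adjusted p = 0.00253), Serp1 (−0.29, adjusted p = 0.00168) and Tram1 (−0.22, adjusted p = 0.00611). The remaining one, Ckap4, lost its call without BSA replicate 3, PA replicate 1, PA replicate 3 or any single PA + C3G library (adjusted p from 0.0599 to 0.134). Sil1 was called higher with C3G by DESeq2 (0.19, adjusted p = 0.0290). Ckap4 and Sil1 were named after their values were seen. Sec61a2, the second alpha subunit gene, is a close paralog of Sec61a1, named after its value was seen, and did not pass the test with PA (0.08, SE 0.08, adjusted p = 0.425). How reads shared by the 2 paralogs were assigned is not given in the sources used here.

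The machineries for other kinds of membrane insertion had medians nearer to that of all genes. In the multipass translocon, which inserts proteins with many membrane spans, 2 of 6 genes were higher with PA (Nomo1 at 0.76, SE 0.05, and Ccdc47 at 0.62, SE 0.05), with a median of 0.12. Ncln was at 0.11 (adjusted p = 0.0564) and Tmem147 at 0.13 (adjusted p = 0.137). Some other fits called Ncln higher, among them that with scaling to equal sums of FPKM (0.14, adjusted p = 0.0218). In the ER membrane protein complex, an insertase, 3 of 9 were higher and 1 lower (median 0.07). Those named were Emc10 at 0.30 (SE 0.08), Emc7 at 0.29 (SE 0.06), Emc1 at 0.17 (SE 0.05) and, as the lower one, Emc2 at −0.29 (SE 0.10, adjusted p = 0.0364). Without BSA replicate 2, BSA replicate 3 or PA replicate 3, 2 of the 9 were higher and 0 lower, as the calls of Emc1 (adjusted p from 0.0509 to 0.0643) and Emc2 (adjusted p from 0.0685 to 0.108) were lost. With scaling to equal sums of FPKM or without PA replicate 2, the call of Emc2 was lost too, and that of Emc1 with limma or without PA replicate 1. The share called higher is near that of all genes. In the GET and SND pathways, which handle tail-anchored and other proteins that do not use the signal recognition particle, 3 of 8 were higher and 1 lower (median 0.06). Get1 was at 0.43 (SE 0.05), Camlg at 0.37 (SE 0.07), Sgta at 0.20 (SE 0.04) and Ubl4a at −0.17 (SE 0.04). With C3G, 1 of the 6 multipass genes was lower than with PA (Ccdc47, −0.29, adjusted p = 0.00357), and 0 of the 17 genes of the other lists passed the test by edgeR, DESeq2 or limma, with 1 gene of each list higher at an unadjusted p-value under 0.05. With scaling to equal sums of FPKM, 3 of the 17 (Get1, Sgta and Bag6) were called lower with C3G. In the multipass list 1 gene was called higher with C3G by DESeq2 (Wdr83os) and without PA + C3G replicate 3 (Tmco1), each named after its value was seen.

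For comparison, all 15 ER chaperones and disulfide isomerases were higher with PA (median 1.16), led by p-value by Hspa5 and by Dnajb9 at 2.05 (SE 0.07), and 8 of the 15 were lower with C3G than with PA. Among the 8, Sdf2l1 and Hsp90b1 each lost this call in several fits with a single library left out (adjusted p from 0.0520 to 0.103). Pdia4, not among the 8, was called lower by DESeq2 (−0.23, adjusted p = 0.0146). These 3 were named after their values were seen. In the COPII coat, which buds vesicles from the ER, 7 of 13 genes were higher with PA and 2 lower (median 0.31), led by p-value by Sec23b at 1.13 (SE 0.05) and Sec31a at 0.65 (SE 0.04), and 4 were lower and 3 higher with C3G than with PA. The 3 fell to 1 with scaling to equal sums of FPKM and when PA + C3G replicate 1 or a single PA library, whichever it was, was left out. In PA versus BSA, Sec23a and Sec31b lost their higher call with limma and in several fits with a library left out (adjusted p from 0.0559 to 0.119). Sec16b lost its lower call in several such fits (0.0581 to 0.0887), and Sec13 with scaling to equal sums of FPKM (0.0519). These genes were named after their values were seen. The median of the translocon genes with PA thus lay between those of these lists. No test of the lists against each other or against all genes was made, and the lists, unlike the call of each gene, give a description only.

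**Figure D4:**
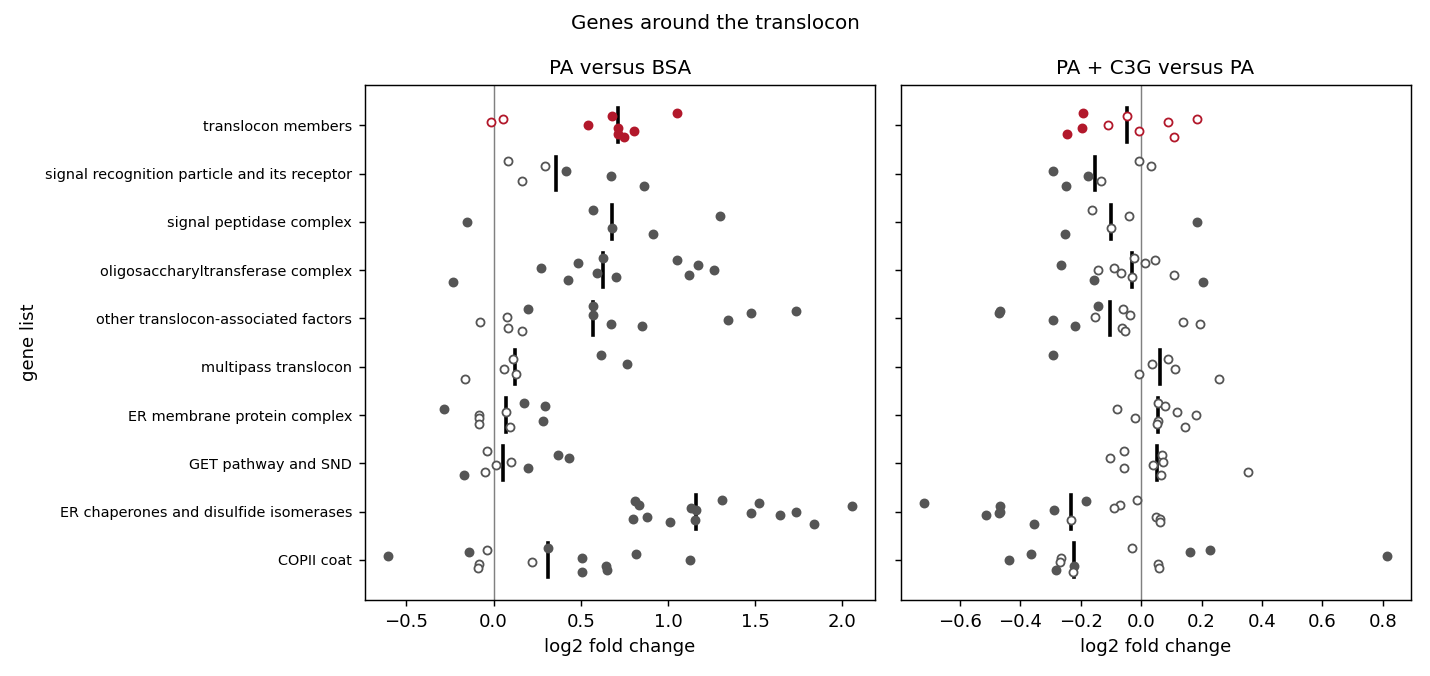
Log2 fold change (horizontal axes) of the translocon genes (red) and of the genes in the lists around them (grey) in PA versus BSA and in PA + C3G versus PA. Each point is a gene, filled where its adjusted p-value was under 0.05, and black bars are list medians. In PA versus BSA the medians run from 0.06 for the GET and SND list to 1.16 for the ER chaperones, with the translocon genes at 0.71.

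The genes whose pattern over the 9 libraries was most like that of Sec61a1 were sought by the root mean square difference of log2 CPM (counts scaled to the depth of the library), each gene centred on its own mean. Among the nearest genes were Gucy2c (0.0536), Slc39a7 (0.0565), Lpcat3 (0.0577) and Sergef (0.0611). The log2 fold changes of these 4 in PA over BSA ran from 0.95 for Slc39a7 to 1.05 for Gucy2c, next to 1.05 for Sec61a1. None of the other members came as near. The closest was Ssr2 at 0.126, and the most distant were Sec61g at 0.418 and Sec62 at 0.457. To the mean pattern of the 9 members the nearest genes were Rpn1 (0.0215), which encodes a core subunit of the oligosaccharyltransferase, Tmed10 (0.0321), a receptor for cargo leaving the ER, Mogs (0.0350), the glucosidase that first trims the N-glycan, Pgrmc1 (0.0388) and Smpd1 (0.0399). Among the members themselves, Sec61b was nearest to this mean (0.0453) and Sec63 next (0.0649), while Sec61a1 (0.197), Sec61g (0.223) and Sec62 (0.264) were farthest. These distances are descriptions over 9 libraries that share treatment groups and a scaling.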

How the data were processed

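PolyA-selected RNA of 9 INS-1E samples was sequenced in stranded, paired-end libraries. The submitters' processing notes name cutadapt 1.9, HISAT2 2.0.4, StringTie 1.3.4d, DESeq2 and edgeR. The genome build is not given in the sources used here. The authors deposited one table with an estimated count and an FPKM value per gene and library. Library totals were 45559993 to 66730721 counts. Genes with 4 counts were 2.44 times as frequent as the mean of those with 3 and 5, so the counts are not independent reads and were also tested after division by 4. FPKM values set levels and ratios, and counts were tested.

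The 12958 of 20645 genes whose FPKM averaged 1 or more entered edgeR 4.0.16 (TMM, quasi-likelihood, 1 coefficient per group, all 9 libraries). P-values were adjusted by Benjamini-Hochberg over all of them, called under 0.05. Alternatives were DESeq2 1.42.0, other scalings and filters, limma 3.58.1, the replicate number as a block and leaving out each library. Ratios within a library were tested by exact permutation (scipy 1.17.1). The study's methods state in general that experiments used biological triplicates, while the labels do not say which libraries came from separate cultures, so p-values measure the spread between these libraries, part of which may be technical. The 9 members and all lists were chosen with earlier results of these data known. Named were all members, up to 4 genes of each list around the translocon by adjusted p in PA versus BSA, up to 2 for each of the chaperone and COPII lists, and the 5 nearest genes by pattern, of which 1 is not reported here. Columns of annotation in the table were not used.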

Additional observations from a re-analysis of the deposited data

How the results depend on the processing

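The number of members called in PA versus BSA was 7 under all alternatives. In PA + C3G versus PA it was 3, and 4 with TPM scaling (libraries scaled to equal sums of FPKM) and 2 or 3 with a library left out. In PA + C3G versus BSA it was 8, and 7 with TPM scaling, with limma, or without BSA replicate 2, PA + C3G replicate 1 or PA + C3G replicate 3. With the replicate block the counts were 7, 3 and 8, and no member's call changed. Same-numbered libraries deviated together little (r of −0.0918 to 0.0796 between groups), so the numbers were not taken as pairs. In PA + C3G versus PA, however, every same-numbered pair (r of 0.0254 to 0.0796) was above every other pair (r of at most 0.0103). There the replicate block raised the calls over all genes from 2752 to 3118.

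Of 513 values for single members under alternatives, 6 changed sign, none of them past the threshold in either fit. Sec62 in PA versus BSA was 0.0144 with TPM scaling. With a library left out it ran from −0.0570 to 0.00858, Sec61g in the same comparison from −0.00251 to 0.0723, and Sec61b and Ssr2 in PA + C3G versus PA from −0.0973 to 0.00183 and from −0.0921 to 0.0800. Leaving out a library also turned the log2 ratio of Ssr1 to Sec61a1 in PA + C3G versus PA (−0.0135 to 0.0130), and in PA versus BSA those of Ssr1 to Ssr4 (−0.0530 to 0.00332) and Ssr3 to Ssr4 (−0.0779 to 0.0117).

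Over all genes, the calls in PA + C3G versus PA fell from 2752 to 1718 without PA replicate 3, and the cause was not tested. TPM scaling gave 775 higher and 2525 lower in that comparison, and limma 1065 and 1636, against 1436 and 1316. In PA + C3G versus BSA they gave 1891 and 3038, and 1850 and 3091, against 2462 and 2321. Counts over the lists and over all genes moved by more than 1.5 times in 18 of 570 cases.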
